A study of Mus musculus with 12 samples.

Results

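Glucagon-producing alpha cells of mouse pancreatic islets were followed through 7 of their genes, Gcg, Irx1, Irx2, Ttr, Gc, Slc38a5 and Pou3f4, taken by symbol from the 55536 genes of a raw count table. Total RNA of whole islets from 16-week-old mice on a mixed strain background of C57BL/6J had been sequenced in 12 libraries, 3 in each of 4 groups. The groups were islets labelled bKO with cytokines, islets labelled bKO without treatment, control islets with cytokines and control islets without treatment. The sample titles write PTPN2 -/- for the bKO islets, which the protocols call Ptpn2-bKO, and PTPN2 +/+ for controls, whose genotype label is fl/fl. No source used here names the driver or the cell type of the deletion, or the cytokine doses. Treated islets received IL-1beta, INF-gamma (the labels' spelling) and TNF alpha during 24 h of culture. Per the protocols the islets came from 3 mice of each genotype, while each genotype has 6 libraries, so some libraries share a mouse and which ones do is not given. P-values therefore measure the spread between libraries, part of which may be technical.

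Alpha cells are the second large endocrine cell type of the mouse islet, beside the insulin-producing beta cells, and raise blood glucose through glucagon. Gcg encodes proglucagon, from which glucagon is cut in alpha cells. Irx1 and Irx2 encode Iroquois homeodomain transcription factors that among islet cells mark alpha cells, and Pou3f4, also called Brn4, encodes a POU homeodomain factor known to bind the glucagon gene promoter. Ttr encodes transthyretin, a carrier of thyroid hormone and of the retinol-binding protein, and Gc the vitamin D-binding protein. Both are best known as liver products and are also made by alpha cells. Slc38a5 encodes a glutamine transporter that rises in mouse alpha cells when glucagon receptor signalling is blocked.

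Promoter sequence from RefSeq (GRCm38.p6) was searched for 5 of the 7 genes, and the counts below hold for these alone. The promoters of the others were not searched. Among the 5 searched, 3 are shown because they belong to the hormone gene and to those with the smallest and largest change below. Each is the 250 bases before the start that RefSeq gives, at chr2:62483654-62483903 (minus strand) for Gcg, chr5:89457899-89458148 (minus strand) for Gc and chrX:110814129-110814378 (plus strand) for Pou3f4. Capitals mark TAAT, the core bound by many homeodomain factors, and TATAAA, each searched on both strands.
Gcg: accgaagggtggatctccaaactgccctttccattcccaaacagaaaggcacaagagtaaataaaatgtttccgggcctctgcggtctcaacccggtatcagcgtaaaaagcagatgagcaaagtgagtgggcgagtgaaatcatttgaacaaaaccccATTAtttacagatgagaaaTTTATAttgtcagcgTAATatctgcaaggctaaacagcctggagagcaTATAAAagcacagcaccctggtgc
Gc: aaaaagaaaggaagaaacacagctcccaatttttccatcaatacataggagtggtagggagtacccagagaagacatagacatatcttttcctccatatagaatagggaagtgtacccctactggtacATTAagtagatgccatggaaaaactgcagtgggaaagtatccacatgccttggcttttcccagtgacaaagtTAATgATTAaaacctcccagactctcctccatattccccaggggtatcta
Pou3f4: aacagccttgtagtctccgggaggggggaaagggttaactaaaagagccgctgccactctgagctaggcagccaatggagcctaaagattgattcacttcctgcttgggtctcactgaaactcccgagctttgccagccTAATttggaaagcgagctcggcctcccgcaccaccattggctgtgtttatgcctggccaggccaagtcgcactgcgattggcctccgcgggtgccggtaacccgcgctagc
The TAAT core was found 2 times in the Gcg window, 3 times in that of Gc and 1 time in that of Pou3f4, and 0 times in those of Irx2 and Slc38a5. It stood in 54.9% of the same windows of 32851 RefSeq promoters. TATAAA was found 2 times in Gcg alone among the 5 windows, against 12.4% of all promoters holding it, and its copy nearest to the start began 24 bases before it. The element TTCNNNGAA, to which STAT factors bind, was in 0 of the 5 windows and in 7.02% of all promoters. The starts in GENCODE release M21 differ for some genes, so that 99 of the 250 bases shown for Pou3f4, and 248 of those searched for Slc38a5, lie inside the gene as annotated there, against 0 for Gcg, Gc and Irx2. These matches describe letters in the windows and do not show a site in use.

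None of the 7 genes overlaps another gene annotated in GENCODE release M21 (GRCm38), which holds all 55536 genes of the table. Irx1 (chromosome 13, 71957921 to 71963723, minus strand) and Irx2 (chromosome 13, 72628820 to 72634198, plus strand) are related genes on the same chromosome. The longest exact run that their transcripts share is 32 bases, shown since a read inside it could not be assigned to one of them.
Irx1 and Irx2: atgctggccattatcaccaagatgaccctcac
Among stretches of 50 bases, 0 of those of Gcg, Irx1, Ttr and Gc recurred in a transcript of another gene. For Irx2 the share was 0.481%, all with Irx5, for Pou3f4 0.382% and for Slc38a5 0.09%.

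Libraries held 47064061 to 107515565 counts, and all 7 genes were among the 19800 that passed the filter on low counts. Levels are given as CPM, counts scaled to the size of the library. Ptpn2 itself stood at 84.2 to 110.5 CPM in bKO islets with cytokines, 33.8 to 36.7 CPM in untreated bKO islets, 78.3 to 90.4 CPM in controls with cytokines and 30.3 to 31.5 CPM in untreated controls, so its RNA was not lower under the bKO label. A count summed over all exons is no test for a deleted exon, and the genotype is used as a label. Replicate 2 of the bKO islets with cytokines stood apart from its group in sums of cell markers. Replicate 2 of the controls with cytokines, the deepest library at 107515565 counts, was at the opposite end of its group. For it only the stellate cell sum lay farther from the nearest replicate than replicates 1 and 3 lay from each other. In that bKO library the 6 ductal markers summed to 6092 CPM and the 6 stellate cell markers to 7951 CPM, against 1902 and 2756 CPM and 3221 and 3023 CPM in replicates 1 and 3. Its 9 beta cell markers summed to 90079 CPM, against 162469 and 147629 CPM. In replicate 2 of the treated controls the ductal markers summed to 1346 CPM and the stellate cell markers to 1481 CPM, against 1938 and 2699 CPM and 4235 and 3083 CPM in replicates 1 and 3, and the beta cell markers to 177638 CPM, against 162164 and 144607 CPM. Across genes, the deviations of these 2 libraries from their group means correlated at -0.79. Calls and counts that turn on either library are given with and without it.

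With cytokines, Gcg fell to less than 1% of all counts in every treated library. It took 0.595% to 0.676% of the counts in bKO islets with cytokines, against 1.66% to 2.02% in untreated bKO islets, and 0.778% to 0.984% in controls with cytokines, against 1.91% to 2.35% in untreated controls. In CPM, the 3 treated bKO libraries had 7481, 6185 and 7201, against 15189.8, 17854 and 18614 in the untreated ones. Treated controls had 8557, 10915 and 8264 CPM, against 22356, 17415 and 18399 CPM in untreated controls. Every treated library lay below every untreated one of its genotype. The fall was 2.48-fold in bKO islets (log2 fold change -1.31, SE 0.15, adjusted p = 1.7e-05, edgeR quasi-likelihood test) and 2.10-fold in controls (-1.07, SE 0.15, adjusted p = 8.7e-05, edgeR). Gcg was lower relative to insulin as well. Its counts were 4.92 to 7.30 per 100 counts of Ins1 and Ins2 together in bKO islets with cytokines, against 13.4 to 16.6 in untreated bKO islets, and 5.67 to 6.60 in controls with cytokines, against 15.2 to 18.1 in untreated controls. In whole islets, fewer alpha cells and less RNA of a gene per alpha cell cannot be told apart.

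**Figure D1:**
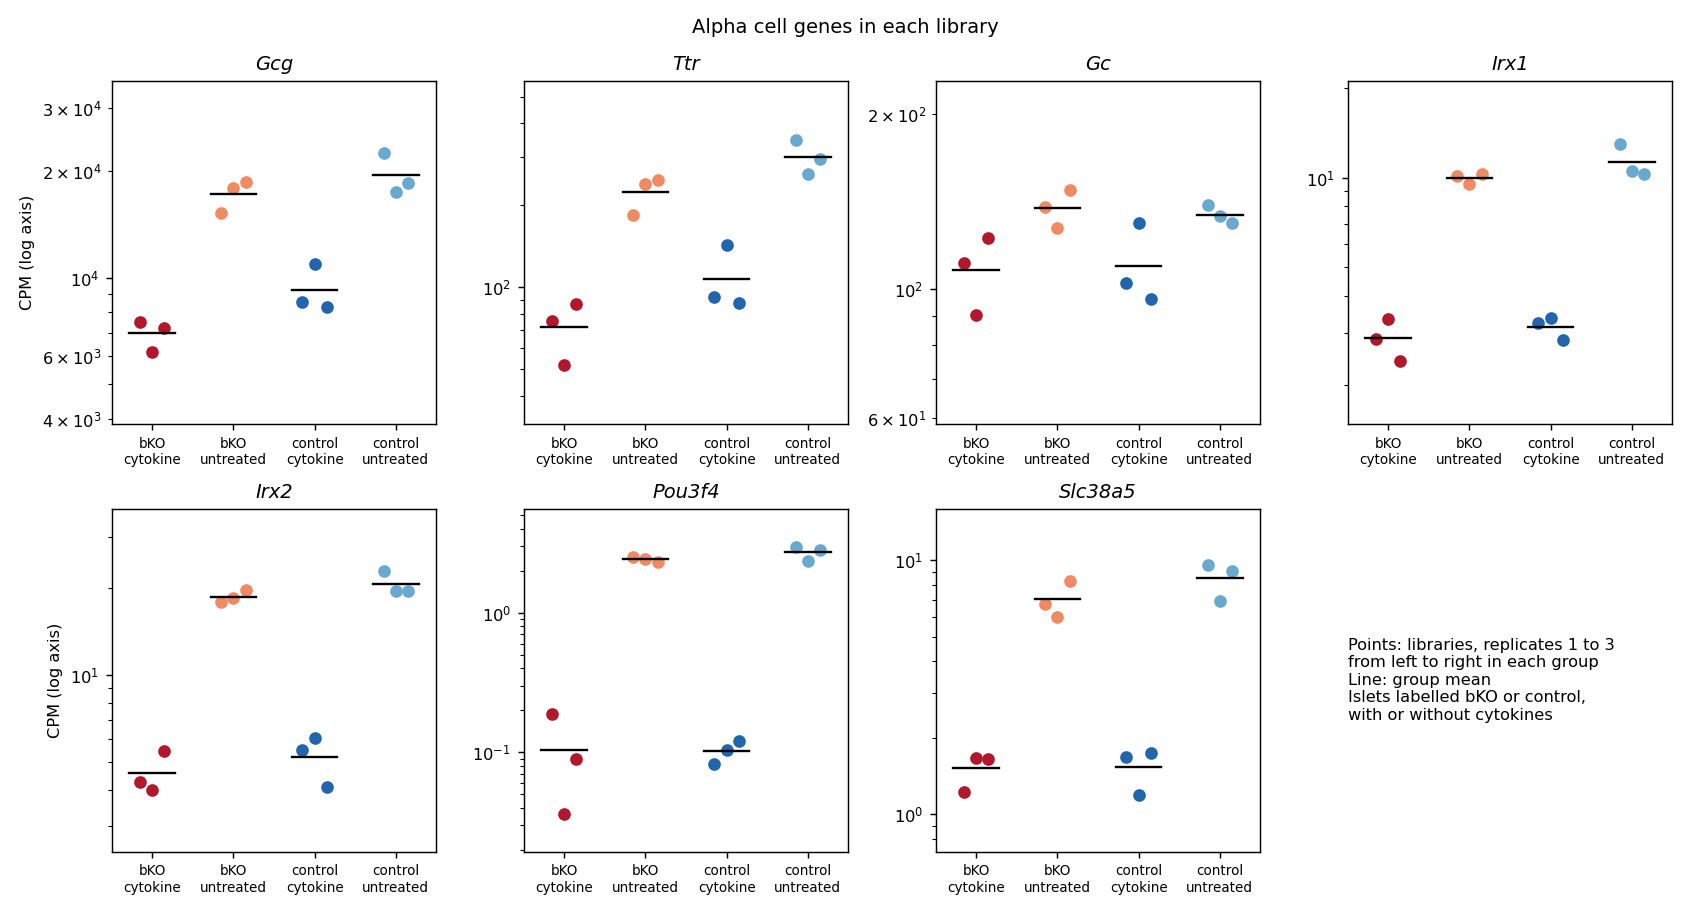
Levels of the 7 alpha cell genes in each of the 12 libraries (vertical axis: CPM, log scale), by group (horizontal axis), with the mean of each group as a line. For 6 of the genes all treated libraries lie below all untreated ones of their genotype, while for Gc replicate 2 of the controls with cytokines, at 130.06 CPM, reaches the level of the untreated controls.

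The transcription factor genes fell further than the hormone gene, a difference that the ratios to Gcg below test and that for Irx1 was lost in one of those tests. Irx1 had 2.87, 3.34 and 2.41 CPM in bKO islets with cytokines, against 10.1, 9.50 and 10.3 CPM in untreated bKO islets. In controls it had 3.25, 3.36 and 2.83 CPM with cytokines, against 12.97, 10.5 and 10.3 CPM without. These groups did not overlap, and Irx1 fell 3.46-fold in bKO islets (log2 -1.79, SE 0.14, adjusted p = 9.8e-07, edgeR) and 3.57-fold in controls (-1.83, SE 0.14, adjusted p = 8.3e-07, edgeR). Its relative Irx2 had 4.26, 4.02 and 5.48 CPM in bKO islets with cytokines, against 17.8, 18.4 and 19.6 CPM in untreated bKO islets. The control values for Irx2 were 5.49, 6.04 and 4.09 CPM with cytokines, against 22.9, 19.5 and 19.5 CPM without. The treated libraries of both genotypes were again all below the untreated ones, a fall of 4.06-fold in bKO islets (-2.02, SE 0.16, adjusted p = 7.1e-07, edgeR) and 3.94-fold in controls (-1.98, SE 0.15, adjusted p = 8.3e-07, edgeR).

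Pou3f4 came close to the limit of detection in treated islets. It had 8, 2 and 4 counts in the 3 bKO libraries with cytokines, against 164, 167 and 149 counts in the untreated ones. Controls had 5, 10 and 6 counts with cytokines, against 190, 141 and 237 counts without. In CPM the group means were 0.105 ± 0.077 in bKO islets with cytokines and 2.42 ± 0.10 in untreated bKO islets (SD, n = 3 each), and 0.102 ± 0.019 in controls with cytokines and 2.72 ± 0.32 in untreated controls (SD, n = 3 each). The filter on low counts asks for at least 0.168 CPM in 3 libraries, with CPM here taken from library totals alone. Pou3f4 reached this in 6 untreated libraries and 1 treated one, so it was tested through its untreated libraries alone. Even the highest treated library was more than 10-fold below the lowest untreated one. The estimated fall was 23.8-fold in bKO islets (log2 -4.57, 95% interval -5.31 to -3.83, adjusted p = 5.0e-07, edgeR) and 26.3-fold in controls (-4.72, 95% interval -5.42 to -4.01, adjusted p = 3.0e-07, edgeR). With so few counts the size is less certain than the direction, and leaving out 1 library of the comparison gave log2 values in bKO islets from -5.28, without the treated replicate 1 and its 8 counts, to -4.05, without the treated replicate 2 and its 2 counts.

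The genes of secreted carrier proteins changed by different amounts. Ttr had 74.9, 51.9 and 87.1 CPM in bKO islets with cytokines, against 184, 240.2 and 248 CPM in untreated bKO islets. Controls with cytokines had 91.8, 144 and 87.5 CPM, against 347, 261 and 296 CPM in untreated controls. The groups did not overlap, and Ttr fell 3.15-fold in bKO islets (log2 -1.65, SE 0.23, adjusted p = 6.5e-05, edgeR) and 2.80-fold in controls (-1.49, SE 0.23, adjusted p = 1.5e-04, edgeR).

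Gc had the smallest change of the 7 genes. Its values were 110.8, 90.1 and 123 CPM in bKO islets with cytokines, against 138, 127 and 148 CPM in untreated bKO islets, and 102, 130.06 and 96.3 CPM in controls with cytokines, against 139, 134 and 130.003 CPM in untreated controls. In bKO islets the groups just failed to touch and the difference passed the test (log2 -0.36, SE 0.13, adjusted p = 0.0287, edgeR). In controls replicate 2 with cytokines overlapped the untreated range and the difference did not pass (-0.29, SE 0.13, adjusted p = 0.0638, edgeR). The call turned on single libraries. Without that control library the difference in controls passed (-0.44, adjusted p = 0.0102, edgeR), and in bKO islets it was lost without replicate 2 with cytokines (-0.18, adjusted p = 0.228, edgeR), without untreated replicate 1 (adjusted p = 0.0601) or without untreated replicate 3 (adjusted p = 0.0957). Scaling also moved it, with adjusted p = 0.0992 in bKO islets under the size factors of DESeq2 and 0.00183 in controls with library totals alone. Because Ttr and Gc are liver genes too, 8 hepatocyte markers were read beside them, of which 3 passed the filter on low counts and 1 was called lower in each genotype. They summed to 4.47 to 11.2 CPM in bKO islets with cytokines, against 21.0 to 25.8 CPM in untreated bKO islets, and 10.8 to 16.2 CPM in controls with cytokines, against 22.6 to 25.6 CPM in untreated controls, and their part in the values of Ttr and Gc was not tested. The marker called lower was Tat, with a log2 fold change of -1.91 in bKO islets (adjusted p = 0.00012, edgeR) and -0.97 in controls (adjusted p = 0.00903, edgeR). Apoa2, at -0.44 and -0.26, did not pass in either. Fabp1 and Serpina1c were at 0 counts in all 12 libraries, and Alb averaged 0.694 CPM in bKO islets with cytokines, 0.417 CPM in untreated bKO islets, 0.628 CPM in controls with cytokines and 0.877 CPM in untreated controls.

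Slc38a5, the amino acid transporter, had 1.22, 1.67 and 1.65 CPM in bKO islets with cytokines, against 6.75, 5.95 and 8.31 CPM in untreated bKO islets. Controls with cytokines had 1.68, 1.19 and 1.74 CPM, against 9.57, 6.92 and 9.09 CPM in untreated controls. No treated library reached an untreated one. The fall was 4.60-fold in bKO islets (log2 -2.20, SE 0.21, adjusted p = 3.7e-06, edgeR) and 5.59-fold in controls (-2.48, SE 0.21, adjusted p = 1.5e-06, edgeR).

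**Figure D2:**
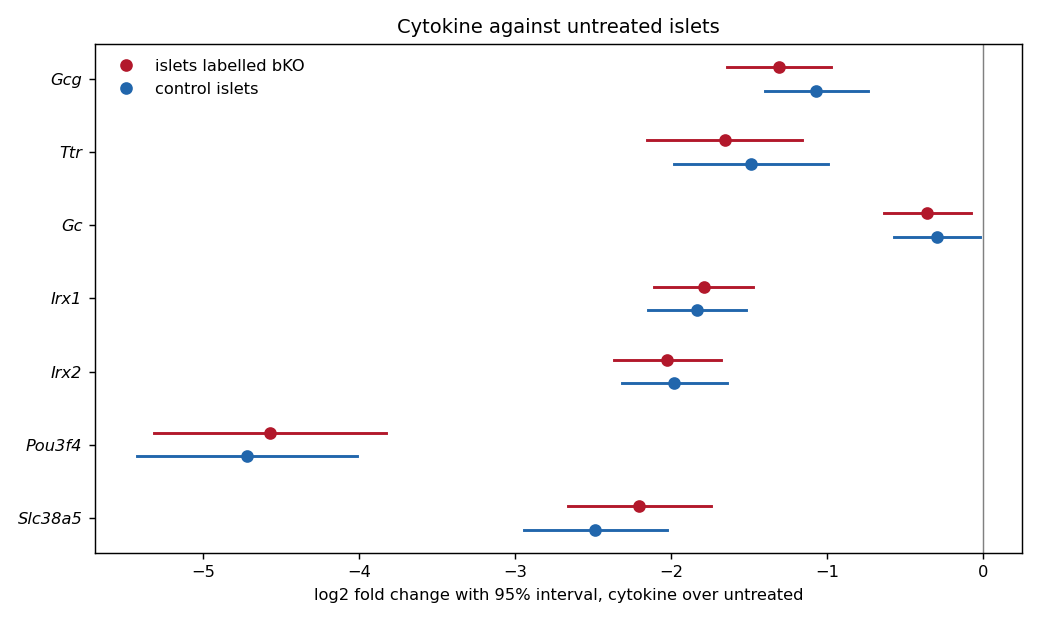
Log2 fold change of each gene with cytokines over untreated islets (horizontal axis) in islets labelled bKO and in control islets, with 95% intervals that are not adjusted for the number of genes. Pou3f4 lies near -4.6 to -4.7 in both genotypes and Gc near -0.3 to -0.4, with the other 5 genes between -2.48 and -1.07.

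In all, 7 of 7 genes were called lower in bKO islets with cytokines, where 33.6% of all 19800 genes tested were called lower, and 6 of 7 in control islets, where 33.9% were. Leaving out Pou3f4, which entered the test only through the group where it was high, the counts were 6 of 6 in bKO islets and 5 of 6 in controls, with median log2 fold changes of -1.72 and -1.66. Replicate 2 of the treated bKO islets bears on the count: without it 6 of 7 were called lower in bKO islets. Without replicate 2 of the treated controls 7 of 7 were called lower in controls. Non-overlap counts were 7 of 7 in bKO islets, beside 35.3% of all genes lower without overlap, and 6 of 7 in controls, beside 40%. Leaving out Pou3f4 here too, they were 6 of 6 in bKO islets and 5 of 6 in controls. The median log2 fold change of the 7 genes was -1.79 in bKO islets and -1.83 in controls, where all tested genes had medians of -0.06 and -0.10. With library totals in place of TMM scaling the medians of all genes moved by -0.23 in both genotypes, and 8693 genes were called lower and 4000 higher in bKO islets, against 6647 and 5711 with TMM scaling, and 8998 and 3737 in controls, against 6704 and 5298. All 7 genes were then called lower in each genotype. Markers of other cells moved in the same comparisons. Beside the lower calls above, 28.8% of all genes were called higher in bKO islets and 26.8% in controls. All 8 macrophage markers rose in both genotypes, with summed levels of 478 to 615 CPM in bKO islets with cytokines, against 158 to 220.0 CPM in untreated bKO islets, and 460.2 to 568 CPM in controls with cytokines, against 166 to 193 CPM in untreated controls. None of the macrophage markers was at 0 in any group, and the part of these cells in the fall of the alpha cell genes was not tested. Of 8 endothelial markers, 7 fell in bKO islets and 8 in controls (7 without replicate 2 of the treated group), with sums of 134 to 177 CPM in bKO islets with cytokines, against 538 to 546 CPM in untreated bKO islets, and 104 to 156 CPM in controls with cytokines, against 481 to 616 CPM in untreated controls. Acinar markers fell in 4 of 8 cases in bKO islets (3 of 8 without replicate 2 of the treated group) and in 8 of 8 in controls, with sums of 768 to 2884 CPM in bKO islets with cytokines, against 2056 to 3379.8 CPM in untreated bKO islets, and 892 to 1455 CPM in controls with cytokines, against 4567 to 7400.2 CPM in untreated controls.

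Lists of other cell markers held calls too, beside 33.6% of all genes lower and 28.8% higher in bKO islets and 33.9% and 26.8% in controls. No list was tested against these shares. Delta cell markers were lower in 3 of 5 cases in bKO islets (4 lower and 1 higher without replicate 2 of the treated group) and in 4 of 5 in controls, with 1 higher. Their sums were 537 to 794 CPM in bKO islets with cytokines, against 1887 to 2197 CPM in untreated bKO islets, and 681 to 1004 CPM in controls with cytokines, against 1938 to 2168 CPM in untreated controls. Of the 3 PP and epsilon cell markers, 2 were lower and 1 higher in bKO islets and 1 was lower in controls, with sums of 823 to 1259.9 CPM in bKO islets with cytokines, against 3352 to 4579 CPM in untreated bKO islets, and 1254 to 1836 CPM in controls with cytokines, against 3653 to 4072 CPM in untreated controls. Ductal markers were higher in 1 of 6 cases in bKO islets, and in controls 1 was higher and 3 were lower (1 and 2 without replicate 2 of the treated group). Their sums were 1902 to 6092 CPM in bKO islets with cytokines, against 2111 to 2690.2 CPM in untreated bKO islets, and 1346 to 2699 CPM in controls with cytokines, against 1803 to 2226 CPM in untreated controls. Stellate cell markers were higher in 3 of 6 cases and lower in 1 in bKO islets (1 and 1 without replicate 2 of the treated group), and in controls 1 was higher and 1 lower. Their sums were 3023 to 7951 CPM in bKO islets with cytokines, against 2107 to 2825 CPM in untreated bKO islets, and 1481 to 4235 CPM in controls with cytokines, against 1843 to 2366 CPM in untreated controls. The bKO groups did not overlap, with or without replicate 2 of the treated group, and the control groups did. None of the markers in these lists was at 0 in a whole group. The part of these markers in the results was not tested either.

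To see whether the genes changed by unequal amounts, each was set against Gcg in the same library, a ratio that does not depend on scaling. The mean log2 change of the ratio to Gcg with cytokines, over both genotypes, was -3.45 for Pou3f4, -1.15 for Slc38a5, -0.83 for Irx2, -0.63 for Irx1, -0.40 for Ttr and 0.85 for Gc. In exact two-sided permutation tests of treatment within genotype, with 400 arrangements, p was 0.005 for 5 of the 6 ratios, the smallest value these can give, and 0.01 for Irx1. Adjusted over the 6 ratios it was 0.006 for those 5 and 0.01 for Irx1. All tested genes had median log2 fold changes of -0.06 in bKO islets and -0.10 in controls, against -1.31 and -1.07 for Gcg. A gene that did not change therefore also rises relative to Gcg. The share of all genes whose ratio to Gcg would pass was not computed. Exact sign flips over same-numbered libraries, which may not share a mouse, gave an adjusted p of 0.0375 for the same 5 ratios and 0.0625 for Irx1, whose ratio then did not pass. Those 5 were again at the smallest p that this test can give. The log2 ratio of Gc to Gcg lay between -6.42 and -5.88 in the 6 treated libraries and between -7.33 and -6.78 in the 6 untreated ones. That of Pou3f4 lay between -17.06 and -15.19 with cytokines and between -12.97 and -12.56 without. The Pou3f4 ratio rests on 2 to 10 counts in each treated library, and this gene passed the filter on low counts through its untreated libraries alone. Neither pair of ranges overlapped. For Irx1 the ranges overlapped in bKO islets, at -11.54 to -10.85 with cytokines and -10.88 to -10.55 without, and not in controls, at -11.66 to -11.36 with cytokines and -10.81 to -10.69 without. Ttr had overlapping ranges over all libraries, -6.90 to -6.25 with cytokines and -6.36 to -5.96 without, but within each genotype its treated libraries were all below the untreated ones.

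**Figure D3:**
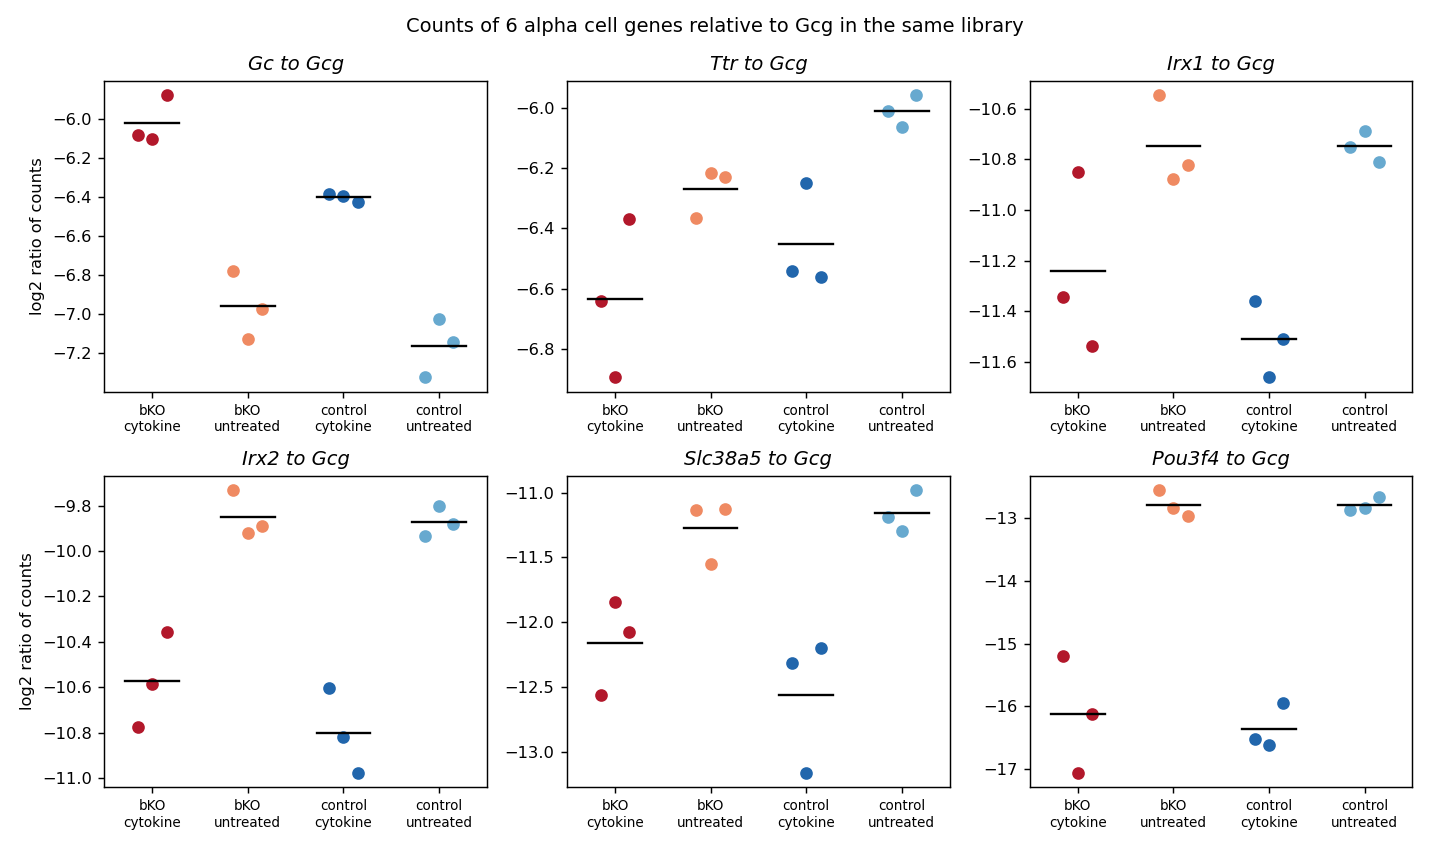
Log2 ratio of the counts of 6 genes to the count of Gcg in the same library (vertical axis), by group, with group means as lines. With cytokines Gc lies higher relative to Gcg in every library and Pou3f4 lower by a log2 of 3.34 in bKO islets and 3.57 in controls.

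Per kilobase of exon, the order of the 7 genes in untreated controls was Gcg (12979 ± 1751 CPM per kb, SD, n = 3), Ttr (254 ± 37), Gc (72.8 ± 2.55), Irx2 (6.28 ± 0.59), Irx1 (4.30 ± 0.57), Slc38a5 (3.81 ± 0.63) and Pou3f4 (0.930 ± 0.109). Irx1 and Slc38a5, neighbours in this order, differed by less than their spread. In bKO islets with cytokines Ttr and Gc came within their spread of each other, at 60.1 ± 15.1 and 58.5 ± 8.9 CPM per kb, against 189 ± 29 and 74.8 ± 5.7 CPM per kb in untreated bKO islets (SD, n = 3 each). Slc38a5 was then at 0.677 ± 0.113 CPM per kb and Irx1 at 1.10 ± 0.18 CPM per kb.

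Between genotypes, the edgeR test called 0 of the 7 genes, with cytokines or without, and DESeq2 called 0 as well. At an unadjusted p under 0.05, 2 of the 7 passed with cytokines, where 17.8% of all genes did, and 0 in untreated islets, where 5.55% did. The edgeR test called 0.232% of all genes between bKO and control islets with cytokines and 0.0758% between untreated islets, so few genes passed at all. The count with cytokines was 46 genes, and it ran from 4 to 444 when 1 of the 6 libraries compared was left out, with 69 without replicate 2 of the treated bKO islets, 6 without replicate 2 of the treated controls, 4 without replicate 3 of the treated controls and 444 without replicate 1 of the treated bKO islets. With cytokines, Gcg averaged 6955 ± 682 CPM in bKO islets and 9245 ± 1453 CPM in controls (SD, n = 3 each), and every bKO library was below every control library. The log2 difference was -0.41 (95% interval -0.74 to -0.08, unadjusted p = 0.0183, adjusted p = 0.211, edgeR). Ttr averaged 71.3 ± 17.9 CPM in bKO islets and 107.6 ± 31.2 CPM in controls with cytokines (SD, n = 3 each), again without overlap, a difference of -0.60 (95% interval -1.08 to -0.11, adjusted p = 0.219, edgeR). These were 2 of 7 genes lower without overlap, where 10.8% of all genes were. Without replicate 2 of the treated bKO islets the differences were -0.35 for Gcg (adjusted p = 0.419, edgeR) and -0.43 for Ttr (adjusted p = 0.467, edgeR), and without replicate 2 of the treated controls they were -0.27 (adjusted p = 0.546, edgeR) and -0.33 (adjusted p = 0.593, edgeR). Over the gene lists, median log2 differences between genotypes with cytokines ran from -0.68 for beta cell markers to 0.84 for ductal markers. The median was -0.13 for the 7 genes, 0.03 for other alpha cell genes, -0.30 for delta cell markers, 0.38 for acinar and 0.69 for stellate cell markers. The part of these other cells in the Gcg and Ttr differences was not tested. In untreated islets only Ttr was lower without overlap, at 224.3 ± 34.8 CPM in bKO islets and 301 ± 43 CPM in controls (SD, n = 3 each; log2 -0.43, 95% interval -0.91 to 0.06, adjusted p = 0.988, edgeR), while 7.94% of all genes were.

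The intervals of the other genotype differences show what was not resolved. For Irx1 and Irx2 with cytokines they ran from -0.45 to 0.19 and from -0.53 to 0.15 on the log2 scale, for Gc from -0.30 to 0.25, for Slc38a5 from -0.47 to 0.47 and for Pou3f4 from -0.99 to 0.94. The test of the difference between the 2 cytokine responses called 0 of the 7 genes, also at an unadjusted p under 0.05, and 0% of all genes, with 2162 of the 19800 genes (10.9%) at an unadjusted p under 0.05. By DESeq2, 186 genes were called for this difference, with 0 of the 7 among them. The estimates for the 7 genes ran from -0.24 for Gcg (95% interval -0.70 to 0.22) to 0.28 for Slc38a5 (95% interval -0.35 to 0.91).

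**Figure D4:**
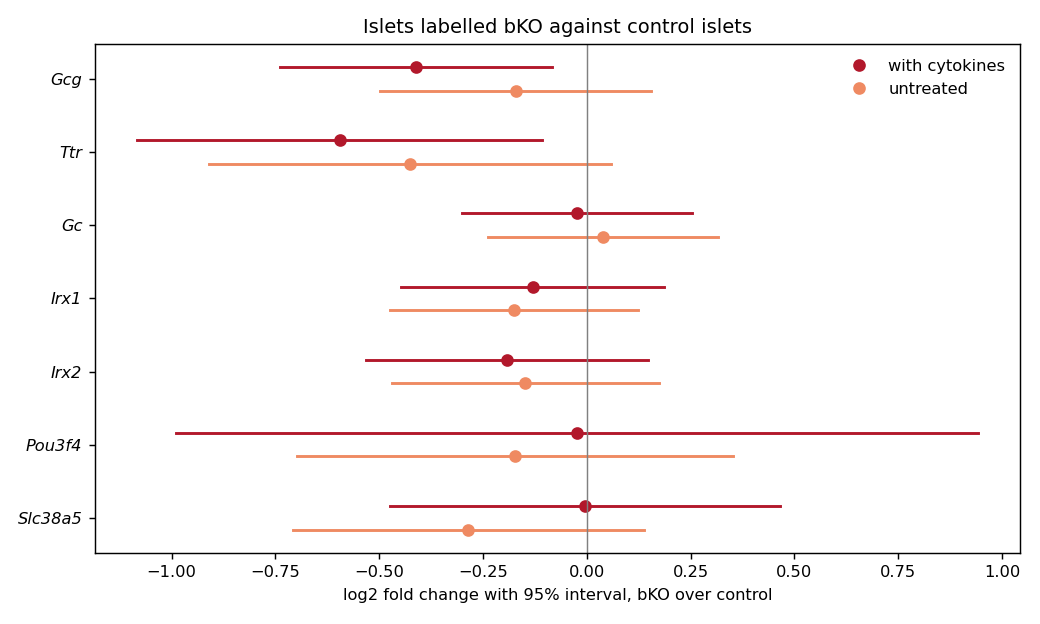
Log2 fold change of each gene in islets labelled bKO over control islets (horizontal axis), with cytokines and untreated, with 95% intervals that are not adjusted for the number of genes. The estimates for Gcg and Ttr with cytokines lie at -0.41 and -0.60, and none of the 7 genes passed after adjustment over all genes.

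Most other alpha cell genes on the list were lower too. Of 10 such genes, 8 were called lower with cytokines and 0 higher in each genotype, against 33.6% of all genes lower in bKO islets and 33.9% in controls, with a median log2 fold change of -1.84 in bKO islets and -1.92 in controls, beside medians of -0.06 and -0.10 for all genes. Sstr2, the receptor through which somatostatin restrains alpha cells, fell, with a log2 fold change of -3.61 in bKO islets and -3.96 in controls. The values were -2.74 and -2.73 for the ETS factor gene Etv1 and -2.15 and -2.23 for the chromatin remodeller gene Smarca1. Slc7a2, a carrier of cationic amino acids, did not pass in bKO islets (0.23, adjusted p = 0.300, edgeR) or in controls (-0.15, adjusted p = 0.517, edgeR), and neither did Plce1 (-0.11, adjusted p = 0.778, and -0.81, adjusted p = 0.0507, edgeR).

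Most transcription factors that alpha cells share with other islet endocrine cells fell as well. Of 11, 9 were called lower in each genotype, with 1 higher in bKO islets and 0 in controls, beside the same shares of all genes called lower, and the medians were -1.67 in bKO islets and -1.45 in controls. Pax6, which is needed for alpha cells to form, had a log2 fold change of -1.63 in bKO islets and -1.22 in controls, Isl1 of -2.15 and -1.80, Nkx2-2 of -2.39 and -1.95, Rfx6 of -2.44 and -1.72 and Rfx3 of -1.67 and -1.45. Foxa1 was the gene called higher in bKO islets (1.14, SE 0.44, adjusted p = 0.0388, edgeR), a call lost without replicate 2 of the treated bKO islets (0.49, adjusted p = 0.209, edgeR) and with library totals alone (0.93, adjusted p = 0.0941, edgeR). These genes are active in beta cells too, and bulk RNA does not assign the fall to one cell type. Of the 9 beta cell markers, 6 were called lower in each genotype (median -2.61 in bKO islets and -2.17 in controls). Ins1, Ins2 and Iapp were not called in either. The 9 markers summed to 90079 (replicate 2) to 162469 CPM in bKO islets with cytokines, against 124419 to 135767 CPM in untreated bKO islets. In controls the sums were 144607 to 177638 CPM with cytokines, all above the 124962 to 136770 CPM without.

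Genes for processing and packing of proglucagon held calls in both directions, as all genes did. Bulk RNA of whole islets does not assign these changes to alpha cells. Among 10 of them, 4 were lower and 3 higher in bKO islets (median -0.15) and 1 was lower and 4 higher in controls (median 0.10), where all genes had 33.6% lower and 28.8% higher in bKO islets and 33.9% and 26.8% in controls. Pcsk2, the convertase that cuts glucagon out of proglucagon, averaged 2169 CPM in bKO islets with cytokines and 3346 CPM in untreated bKO islets (log2 -0.63, SE 0.18, adjusted p = 0.00911, edgeR), and 3052 CPM in controls with cytokines and 3613 CPM in untreated controls (-0.24, SE 0.18, adjusted p = 0.251, edgeR). Pcsk1, which cuts proglucagon to GLP-1 and in islets processes proinsulin, fell, with -1.76 in bKO islets and -1.35 in controls. Chgb, a granule protein gene, rose by 0.56 and 0.93, and Cpe, the carboxypeptidase that trims peptide hormones, rose by 0.58 and 0.96. With library totals alone Cpe did not pass in bKO islets (0.34, adjusted p = 0.0789, edgeR), while Chgb did (0.32, adjusted p = 0.0361, edgeR). These counts depend on 1 library and on scaling. Without replicate 2 of the treated bKO islets 2 were lower and 5 higher in bKO islets (median 0.13), and with library totals alone 5 were lower and 1 higher in bKO islets and 4 and 4 in controls (medians -0.39 and -0.14).

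Among receptors of the proglucagon peptides and enzymes that clear them, 4 of 6 genes were lower and 2 higher in bKO islets and 4 lower and 1 higher in controls, beside the same shares of all genes. Gcgr, the glucagon receptor, fell with a log2 fold change of -2.44 in bKO islets and -1.72 in controls, Glp1r, the GLP-1 receptor, with -2.70 and -2.30, and Gipr, the receptor of the related hormone GIP, with -2.95 and -2.35. Dpp4, whose product cleaves GLP-1, fell with -2.20 and -1.69. Here too, RNA of whole islets does not show in which cells these changes took place. Glp2r, the GLP-2 receptor, rose, with means of 13.4 CPM in bKO islets with cytokines and 0.187 CPM in untreated bKO islets, and 10.6 CPM in controls with cytokines and 0.152 CPM in untreated controls (log2 6.16, SE 0.52, and 6.06, SE 0.52; adjusted p = 1.4e-06 and 1.8e-06, edgeR). Of its untreated libraries 2 reached the minimum of the filter and of its treated ones 6, so Glp2r was tested through its treated libraries, and without it 1 gene was higher in bKO islets and 0 in controls. The other higher gene was Mme, which encodes the peptidase neprilysin (2.23 in bKO islets, adjusted p = 0.0192, edgeR), and its call was lost without replicate 2 of the treated bKO islets (1.32, adjusted p = 0.118, edgeR).

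Amino acid transporters other than Slc38a5 held shares of calls near or below those of all genes. Of 11, 3 were higher and 2 lower in bKO islets (median 0.23) and 3 higher and 3 lower in controls (median -0.15; with replicate 2 of the treated controls left out, 2 rose and 3 fell), and with library totals alone 2 were higher and 3 lower in bKO islets and 2 and 5 in controls (medians -0.0013 and -0.38). Slc7a11, the cystine carrier, rose by a log2 of 4.45 in bKO islets and 4.01 in controls together with its partner chain gene Slc3a2 (1.45 and 1.41), whereas Slc7a8, a carrier of neutral amino acids, fell with -1.22 in both. Among family relatives of the 7 genes, Irx3 rose by 1.61 in bKO islets and 0.91 in controls (0.68, adjusted p = 0.0533, edgeR, in controls with library totals alone) and Pou3f1 by 2.02 and 2.19. Afm, a relative of Gc, fell in bKO islets (-1.54, adjusted p = 0.00973, edgeR) and did not pass in controls (-0.94, adjusted p = 0.0696, edgeR). Irx6 was at 0 counts in all groups. Of the 10 relatives listed, 6 passed the filter on low counts, with 3 called higher and 1 lower in bKO islets and 3 higher and 0 lower in controls. Beside them, 28.8% of all genes were higher and 33.6% lower in bKO islets, and 26.8% and 33.9% in controls. The third higher one in each genotype was Afp, also a relative of Gc, which had 11 to 17 counts in bKO islets with cytokines, against 1 to 5 in untreated bKO islets, and 15 to 25 in controls with cytokines, against 1 to 2 in untreated controls. It passed the filter through its treated libraries alone, so its call is not counted as support for a rise among the relatives. Irx5 passed by the same route and was not called in either genotype.

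**Figure D5:**
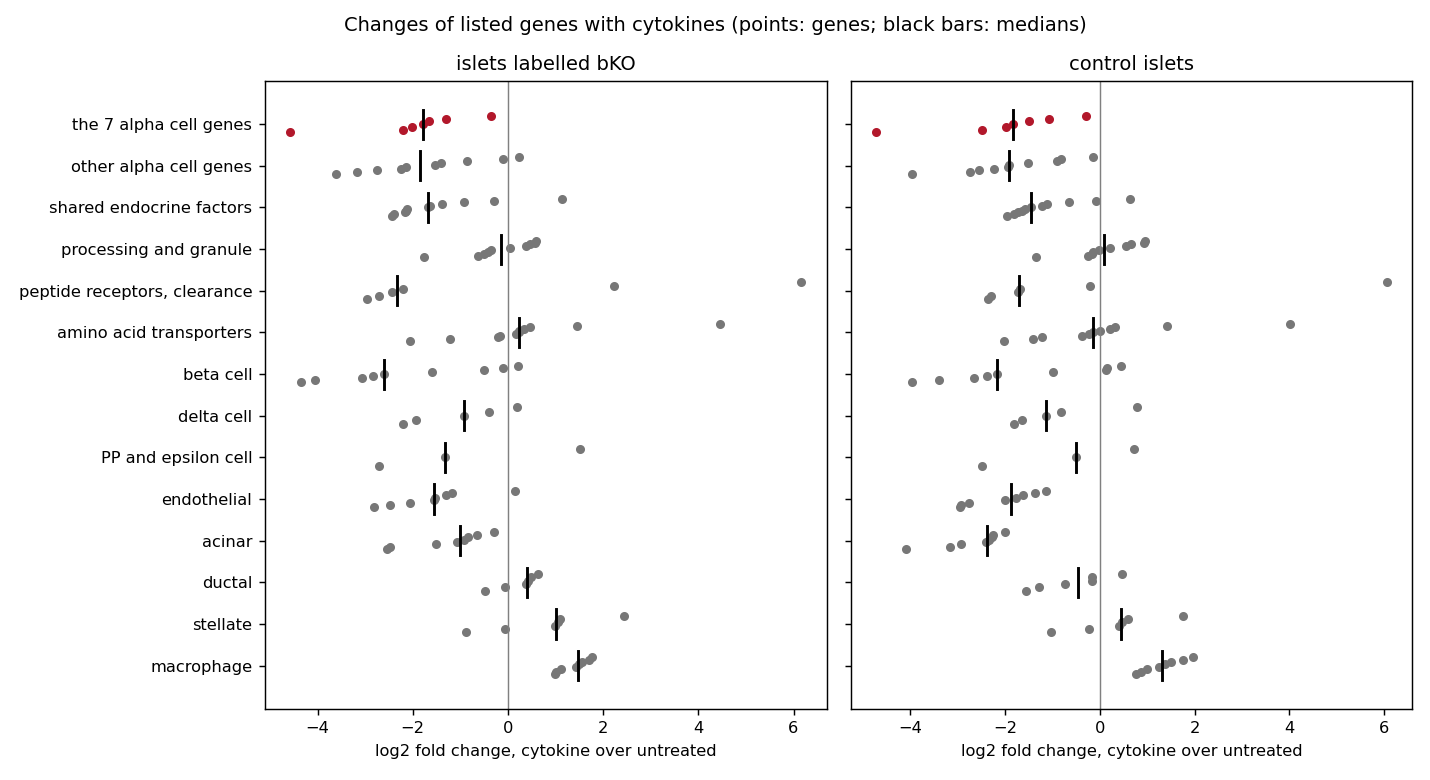
Log2 fold change with cytokines over untreated islets (horizontal axis) for genes of each list, in islets labelled bKO and in control islets, with 1 point per gene and the list's median as a bar. The medians of the 7 alpha cell genes (-1.79 and -1.83) and of the other alpha cell genes (-1.84 and -1.92) lie left of 0, as do those of the beta and delta cell markers, and those of the macrophage markers lie right of it (1.47 and 1.31).

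The comparison with Gcg covered 11124 tested protein-coding genes with a mean of at least 5 CPM, predicted genes and pseudogenes left out. The 5 most like Gcg over the 12 libraries were sought among them by the root mean square difference between centred log2 CPM profiles. They were C1qtnf4 (0.109), Pcx (0.11), Pcdhga6 (0.111), Prepl (0.116) and Ids (0.118). Their cytokine changes lay between -1.27 and -1.16 in bKO islets and between -1.11 and -1.001 in controls. The 6 other alpha cell genes were farther from Gcg on this measure, from 0.268 for Ttr and 0.372 for Irx1 to 1.85 for Pou3f4. Because the 5 genes were picked for the smallest distance, all the other genes compared are farther too. A typical distance over all genes is not given, so these values do not show whether the 6 genes are near or far. The minimum of 5 CPM was not applied to these genes, and Pou3f4 was below it in every group. All these profiles share the same libraries and the same treatment, so the likeness is a description of size and direction of change.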

How the data were processed

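Raw counts per gene, as whole numbers, were deposited by the authors for 12 islet libraries. The submitters' processing notes name the genome build GRCm38, the aligner STAR (2.5.2a), the counter featureCounts (1.6.2), the trimmer cutadapt (1.16) and FastQC (0.11.7). Strand setting and annotation release: not given in the sources used here. A table of filtered counts and the authors' size factors were not used.

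Groups and replicate numbers were taken from the sample titles. From 55536 genes, 19800 passed filterByExpr. After TMM scaling they were tested by the quasi-likelihood method of edgeR 4.0.16 (R 4.3.3), with a coefficient for each of 4 groups over all 12 libraries and Benjamini-Hochberg adjustment over all genes tested at 0.05. SEs are the log2 fold change divided by the root of the F statistic. Library totals of 47064061 to 107515565 counts set the precision. Libraries of a group differed by a chi-square of at least 15 per degree of freedom, and none was counted as a copy. Ratios to Gcg used counts plus 0.5. Gene positions and exon lengths are from GENCODE release M21. The promoters of Irx1 and Ttr were not searched. The tests were tried on simulated data.

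Alternatives were other scalings, filters and thresholds, DESeq2 1.42.0, limma-voom (limma 3.58.1), fits of the compared groups only, replicate blocks and leaving out each library. The genes named are the 7 alpha cell genes, up to 3 per list in order of adjusted p, Pax6 and Pcsk2, and the 5 genes most like Gcg. Some genes that this rule names are not reported here. Slc7a2, Plce1, Foxa1, Mme, Gcgr, Afm, Irx6 and hepatocyte genes were named after their values were seen. The 7 genes and the lists were chosen with earlier results of these data known.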

Additional observations from a re-analysis of the deposited data

How the results depend on the processing

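The count of the 7 genes called lower with cytokines was 6 or 7 in each genotype under each of 17 alternatives, and 0 were called between genotypes under 16 alternatives or for the difference in response under 22. In the 6 fits that leave out 1 library of the comparison it was 6 to 7 in bKO islets and in controls. Gc was the gene that changed side. Relative to Gcg, 6 ratios passed in the main test and in each test without 1 library, and 5 in sign flips over same-numbered libraries, where Irx1 had an adjusted p of 0.0625 in the exact test. Both counts include Pou3f4, which passed the filter on low counts through its untreated libraries alone. The share of all genes whose ratio to Gcg would pass was not computed.

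Estimates near 0 changed sign without passing a test. For Slc38a5 between genotypes with cytokines they were 0.017 with library totals alone, 0.042 with limma-voom, 0.0030 with only the groups compared and 0.012 with the shared replicate block. For the difference in response, Pou3f4 was at -0.039 with limma-voom. Leaving out 1 library each gave ranges of -0.17 to 0.13 for Slc38a5, -0.13 to 0.12 for Gc and -0.73 to 0.41 for Pou3f4 between genotypes with cytokines, and of -0.016 to 0.094 for Gc between untreated genotypes. For the difference in response they were -0.097 to 0.15 for Irx1, -0.19 to 0.078 for Irx2, -0.34 to 0.094 for Ttr, -0.17 to 0.078 for Gc and -0.56 to 0.59 for Pou3f4.

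No source used here says whether same-numbered libraries share a mouse, and the data do not settle it. Across genes, deviations of same-numbered treated and untreated libraries correlated at -0.10, 0.0052 and 0.10 in bKO islets and at -0.25, 0.045 and 0.012 in controls. With the replicate block shared by the groups 6 genes were lower in each genotype, and 7 with a block within genotype. Over all genes, 46 were called between genotypes with cytokines (4 to 444 without 1 library each), against 0 with only the groups compared and 705 by DESeq2, 15 in untreated islets, against 128 by DESeq2, and 0 for the difference in response, against 186 by DESeq2. Depth limits Pou3f4, with 2 to 10 counts in each treated library. The causes of these shifts were not tested.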
